A study of Mus musculus with 24 samples.

Results

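Transcripts of 10 genes that release fatty acids from stored triglyceride or coat the lipid droplet were followed across 4 mouse strains and 2 diets. The genes were taken by symbol from a set list: Pnpla2, Lipe, Mgll, Abhd5, G0s2, Plin1, Plin2, Plin4, Plin5 and Cidec. All 10 were among the 37991 gene identifiers of the count table, and all 10 passed the filter on low counts. RNA-seq had been run on inguinal subcutaneous fat pads of 24 female mice, with 1 library per mouse. The mice were NZO/HiLtJ, C57BL/6J, WSB/EiJ or CAST/EiJ, inbred strains from 1 supplier with no engineered allele named in the labels, and each strain had 3 mice on each diet. From 4 weeks of age they ate either standard chow (17% of its energy was fat) or a high-fat, high-sucrose chow (45% of its energy was fat and 34% of its weight sucrose), and all were killed at 26 weeks. Groups are named below by strain and diet (standard or high-fat). Replicate numbers are names given in accession order and tie no mice together across groups.

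Triglyceride in an adipocyte sits in a lipid droplet whose surface is covered by perilipins and by Cidec, which lets droplets fuse into 1 large droplet. Lipolysis is stepwise: the lipase ATGL (Pnpla2) takes the first fatty acid, hormone-sensitive lipase (Lipe) the next, and monoglyceride lipase (Mgll) the last. Abhd5 (CGI-58) activates ATGL and is held by Plin1 until catecholamines act through protein kinase A, while G0s2 binds ATGL and inhibits it. Insulin opposes these steps.

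Library totals ran from 47651641 to 84009032 counts. Levels below are CPM, a gene's counts relative to the library total, with totals scaled by trimmed means (TMM). Summed marker levels are CPM over unscaled totals. The fat label was checked with 10 adipocyte genes that are no members (Adipoq, Adig, Retn, Cfd, Lep, Pparg, Cebpa, Car3, Slc2a4 and Gpd1). Their sum was 5019 CPM or more in 23 libraries. CAST/EiJ high-fat replicate 1 stood apart with 106 CPM, although all 10 genes had counts there. That library also held 10227 CPM of 5 smooth muscle genes and 731 CPM of 8 epithelial genes, against medians over the 24 libraries of 237 and 34.3 CPM. It goes against its label as fat, so the tests are given for all 24 libraries and, beside them, for the 23 without it. Epcam, an epithelial marker, was at 5 CPM or more in 6 libraries, among them all 3 of the WSB/EiJ high-fat group, and the set without them has 18 libraries. Of 6 milk-secreting epithelium genes, between 2 and 5 had counts in a library, and their sum ranged from 50.2 to 194 CPM, lowest in the WSB/EiJ high-fat mice (50.2 to 72.0 CPM) and in CAST/EiJ high-fat replicate 1 (62.9 CPM).

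**Figure D1:**
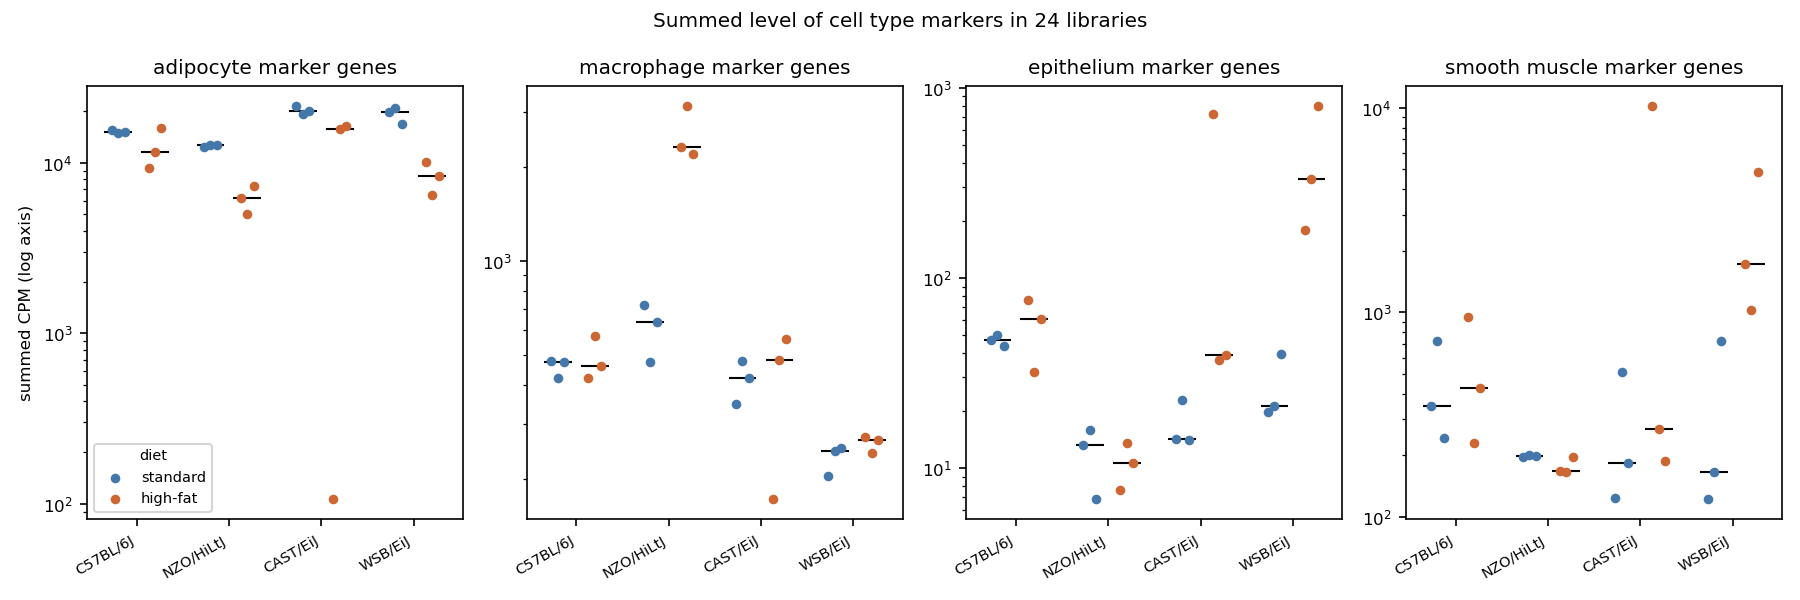
Summed CPM (log axis) of marker genes of adipocytes, macrophages, epithelium and smooth muscle in each library, by strain, with 1 point per mouse and a line at the median of 3. The adipocyte sum is at 106 CPM in 1 CAST/EiJ high-fat library, the macrophage sum is at 2193 to 3134 CPM in NZO/HiLtJ high-fat, and the epithelial sum is at 178 to 804 CPM in WSB/EiJ high-fat.

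Windows of 250 bases before the annotated start are shown for 3 members whose diet effects went different ways in the results below: Plin1 and Cidec, which are made mainly in adipocytes, and Plin2, which is made in most cells. They are read 5′ to 3′ on the gene's strand from RefSeq (GRCm38.p6), where all 10 members matched a promoter entry. Capitals mark a match to TTGCNNAA, the site of CCAAT/enhancer-binding proteins, or to AGGTCA, the half-site of nuclear receptors such as PPARs, on either strand. The Plin1 window is chr7:79732777-79733026, the Cidec window (the second annotated start) is chr6:113434765-113435014, and the Plin2 window is chr4:86670060-86670309, all on the minus strand.
Plin1: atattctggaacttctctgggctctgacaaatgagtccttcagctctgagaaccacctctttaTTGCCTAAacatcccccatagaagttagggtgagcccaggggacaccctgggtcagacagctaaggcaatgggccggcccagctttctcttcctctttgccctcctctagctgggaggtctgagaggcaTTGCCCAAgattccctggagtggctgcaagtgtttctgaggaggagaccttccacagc
Cidec: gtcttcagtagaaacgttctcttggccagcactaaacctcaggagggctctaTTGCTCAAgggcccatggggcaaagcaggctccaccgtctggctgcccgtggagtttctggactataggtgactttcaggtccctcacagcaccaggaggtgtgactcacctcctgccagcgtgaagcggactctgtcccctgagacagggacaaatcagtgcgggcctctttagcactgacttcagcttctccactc
Plin2: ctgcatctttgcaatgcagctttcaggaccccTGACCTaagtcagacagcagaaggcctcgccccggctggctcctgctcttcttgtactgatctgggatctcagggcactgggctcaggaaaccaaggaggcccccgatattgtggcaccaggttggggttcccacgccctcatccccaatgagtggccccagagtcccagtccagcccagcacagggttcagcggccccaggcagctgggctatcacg
TTGCNNAA began 187 and 58 bases before the start of Plin1 (positions -187 and -58) and at -198 of this Cidec start, and was in no window of the other 8 members. It was in 9.56% of the 32851 mouse promoter windows of the same length. AGGTCA began at -218 in Plin2, -69 in Abhd5 and -170 in Plin5, and was in 14.02% of all windows. The E-box CACGTG, searched in the same way, began at -155 in Lipe and -44 in Mgll, and was in 6.02% of all windows. The windows of the first Cidec start and of the second Lipe, Mgll and Plin5 starts held none of these motifs. These matches are descriptions of letters, not binding sites, and their relation to the diet effects was not tested.

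Per kilobase of exon (the union of exons in GENCODE M21, GRCm38, which is not the authors' annotation), the order of the members by median level over the 24 libraries ran over a wide range. Cidec was highest with 1863 CPM per kb, followed by Pnpla2 with 1451. Mgll, Lipe and Plin4 came next with 407, 315 and 248 CPM per kb. Plin2 had 143, Plin1 103 and G0s2 85.6 CPM per kb. Abhd5 had 32.9 CPM per kb, and Plin5, a perilipin best known from oxidative tissues such as heart and muscle, was lowest with 8.30. By mean CPM, not scaled to length, Cidec and Pnpla2 both stood at percentile 99.9 of the 20035 genes tested, and Plin5 at percentile 61.1.

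The first question was whether the diet moved these genes in each strain. In all 24 libraries edgeR's quasi-likelihood test called 0 of the 10 members in any of the 4 strains. Of all genes tested, 0.00998% were called in C57BL/6J, 4.89% in NZO/HiLtJ, 4.87% in CAST/EiJ and 21.5% in WSB/EiJ. At an unadjusted p below 0.05, the count was 1 member in NZO/HiLtJ (15.7% of all genes), 1 in WSB/EiJ (37.3%) and 0 in the other two strains. DESeq2 called 1 member in WSB/EiJ (27.6% of all genes) and limma voom 0 in any strain. The median log2 change of the 10 members was -0.12 in C57BL/6J, -0.40 in NZO/HiLtJ, -0.84 in CAST/EiJ and -0.94 in WSB/EiJ, against 0.02, -0.01, 0.05 and 0.07 over all genes.

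The spread of these genes moved with CAST/EiJ high-fat replicate 1. The biological coefficient of variation of the members was 37.1% (Plin2) to 72.3% (Plin1) with that library and 14.1% (Abhd5) to 26.8% (Plin4) without it. Without it, 7 members fell on the high-fat diet in WSB/EiJ, where 17.9% of all genes were called lower: Pnpla2, Lipe, Mgll, Abhd5, Plin1, Plin2 and Cidec. In NZO/HiLtJ, Plin2 rose and Cidec fell, where 6.16% of all genes were called higher and 5.49% lower. The count stayed at 0 in C57BL/6J (0.103% of all genes called) and in CAST/EiJ (0.304%), with 2 (7.44% of all genes) and 0 members at an unadjusted p below 0.05. The CAST/EiJ high-fat group then rests on 2 mice, so its comparison has the least precision. Fits to 1 strain alone, which also leave that library out of the NZO/HiLtJ and WSB/EiJ estimates, called 6 members in NZO/HiLtJ (32.7% of all genes), Plin2 higher and Pnpla2, Lipe, Mgll, Plin1 and Cidec lower, and 2 in WSB/EiJ (8.15%), Abhd5 and Cidec, both lower. The count for WSB/EiJ thus ranged from 0 to 7 with the libraries that share the estimate of spread. In the set of 18 libraries, which has no WSB/EiJ high-fat mouse, 6 members were called in NZO/HiLtJ: Plin2 rose, where 10.8% of all genes were called higher, and Pnpla2, Lipe, Mgll, Plin1 and Cidec fell, where 10.1% were called lower.

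**Figure D2:**
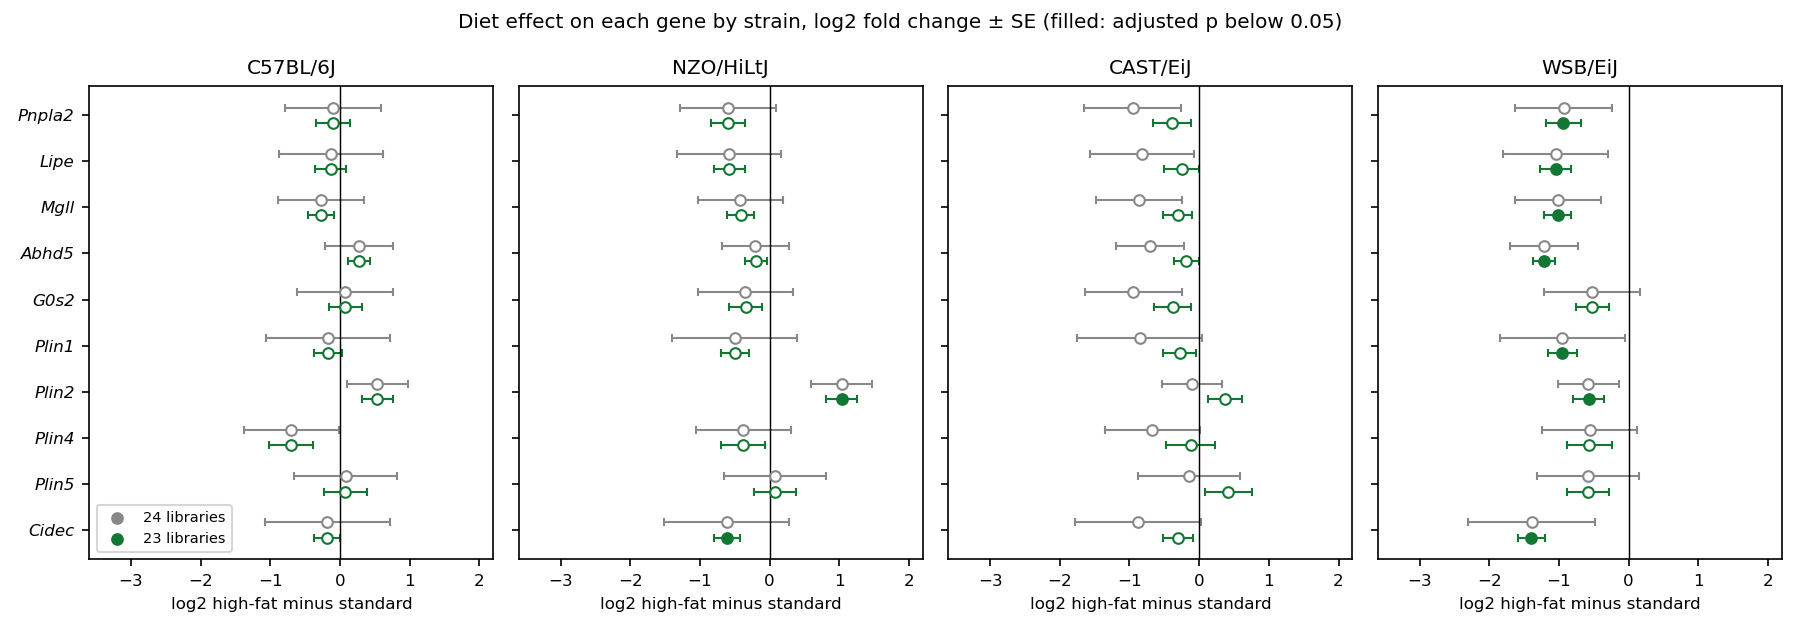
Log2 fold change of high-fat minus standard ± SE for each gene in each strain, from all 24 libraries (grey) and without CAST/EiJ high-fat replicate 1 (green), with filled points at an adjusted p below 0.05. In WSB/EiJ all 10 estimates are below 0 and 7 are filled in the fit of 23 libraries, and in NZO/HiLtJ Plin2 is at 1.04 while 8 of the other 9 estimates are below 0.

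The levels of cell type markers moved with the diet in the same groups, and in bulk fat fewer adipocytes and less RNA per adipocyte cannot be told apart. In NZO/HiLtJ the adipocyte sum was 12326, 12679 and 12713 CPM on the standard diet and 6181, 5019 and 7330 on the high-fat diet, and the macrophage sum of 8 genes was 720, 473 and 638 against 2305, 3134 and 2193 CPM. In WSB/EiJ the adipocyte sum was 19928, 21057 and 16950 CPM against 10149, 6508 and 8316, and the epithelial sum was 19.7, 21.2 and 39.7 CPM against 178, 331 and 804. The sum of 6 liver genes was 744, 1248 and 128 CPM in NZO/HiLtJ on the standard diet and 31.2, 16.7 and 6.34 on the high-fat diet. In the fit of 23 libraries, 6 of 10 adipocyte genes fell (5.49% of all genes) and 7 of 8 macrophage genes rose (6.16%) in NZO/HiLtJ. In WSB/EiJ 9 of 10 adipocyte genes fell (17.9% of all genes) and 5 of 5 smooth muscle genes rose (21.8%). With the log2 adipocyte sum as a covariate in the same 23 libraries, a fit added after seeing the data, edgeR called 0 members in NZO/HiLtJ (0.672% of all genes) and 0 in WSB/EiJ (0.00%). At an unadjusted p below 0.05 it then had 2 members in NZO/HiLtJ (13.5% of all genes), Pnpla2 and Plin2, and 0 in WSB/EiJ. With that covariate 9 of the 10 NZO/HiLtJ estimates were above 0, among them 0.91 for Plin2, 0.62 for Pnpla2, 0.52 for Plin1, 0.50 for Lipe, 0.45 for Mgll and 0.22 for Cidec. In WSB/EiJ 5 estimates were above 0, among them 0.49 for Pnpla2, 0.24 for Plin1 and 0.21 for Lipe, each of which was called lower without the covariate. The other 5 were below 0, with -0.71 for Plin2, -0.52 for Abhd5, -0.42 for Cidec and -0.0098 for Mgll. The covariate is itself an outcome of the diet, and its values on the 2 diets did not overlap in NZO/HiLtJ or in WSB/EiJ. With 1 coefficient per group, its slope comes from differences between mice of the same group. Diet and covariate are thus poorly separated, and these estimates are not changes relative to the adipocyte sum. The 0 calls do not show that the members were unchanged.

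Averaged over the 4 strains, none of the members was called in 24 libraries, where 28.9% of all genes were, and edgeR had 0 members at an unadjusted p below 0.05. DESeq2 and limma voom also called 0. With that library left out, 6 members were lower on the high-fat diet (15.0% of all genes) and Plin2 was higher (13.9%). The changes were -0.51 ± 0.13 for Pnpla2, -0.50 ± 0.11 for Lipe and -0.50 ± 0.10 for Mgll (log2 ± SE). They were -0.33 ± 0.08 for Abhd5, -0.48 ± 0.11 for Plin1, -0.62 ± 0.10 for Cidec and 0.34 ± 0.11 for Plin2. G0s2 (-0.29), Plin4 (-0.44) and Plin5 (-0.0031) did not pass, with adjusted p = 0.081, 0.051 and 1. In the 18 libraries, where the average is over 3 strains, Cidec (-0.31), Mgll (-0.28) and Plin1 (-0.25) fell (5.90% of all genes) and Plin2 rose by 0.66 (6.42%).

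**Figure D3:**
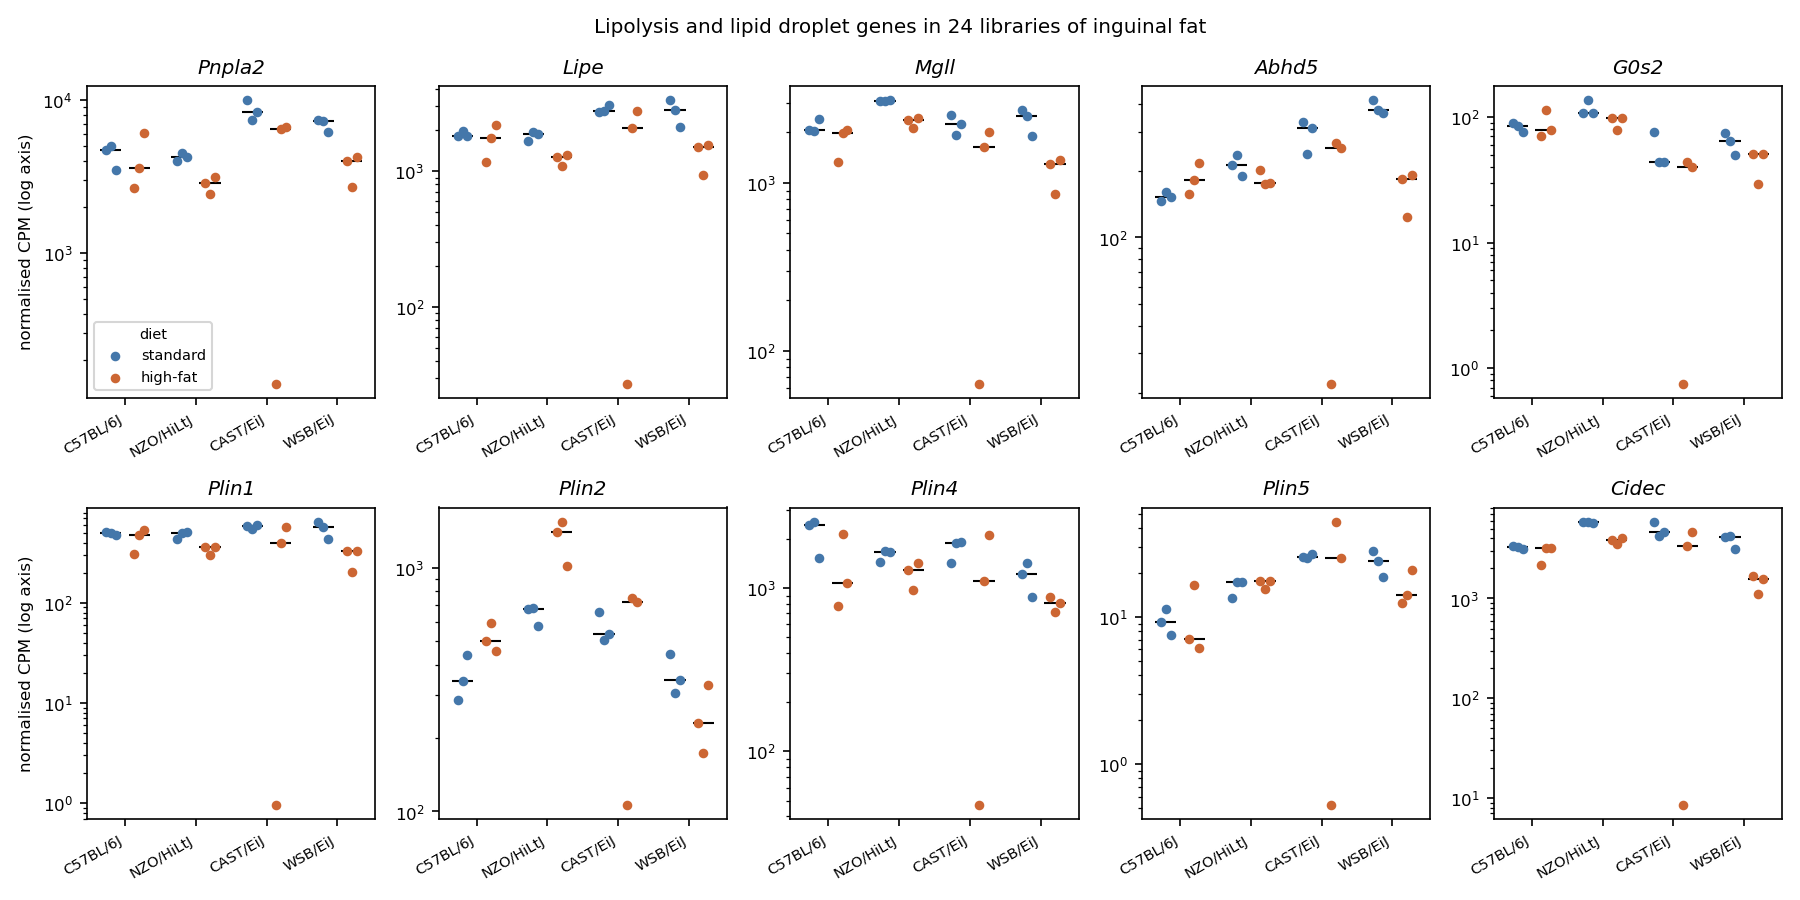
Normalised CPM (log axes) of the 10 genes in each library, by strain and diet, with 1 point per mouse and a line at the median of 3. One CAST/EiJ high-fat library lies below every other library for each gene, and the 3 NZO/HiLtJ high-fat libraries lie highest for Plin2 at 1018 to 1542 CPM.

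Pnpla2 (chromosome 7, 141455198 to 141460743, plus strand, GRCm38) encodes ATGL, which starts lipolysis. In WSB/EiJ it was at 7438, 7265 and 6128 CPM on the standard diet and 3970, 2689 and 4240 on the high-fat diet, with no overlap. In NZO/HiLtJ it was at 4003, 4526 and 4231 against 2872, 2420 and 3125 CPM, again with no overlap. The log2 change was -0.94 ± 0.25 in WSB/EiJ (adjusted p = 0.0067, 23 libraries, edgeR) and -0.60 ± 0.24 in NZO/HiLtJ (adjusted p = 0.13). In C57BL/6J the high-fat mice spread from 2654 to 6068 CPM, around the 3467 to 5016 CPM of the standard diet. The 2 remaining CAST/EiJ high-fat libraries, at 6489 and 6608 CPM, lay below the 7345 to 9953 CPM of the standard diet, while replicate 1 had 141 CPM.

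Lipe (chromosome 7, 25379527 to 25398710, minus strand) encodes hormone-sensitive lipase, which acts mainly on diglyceride. It was at 3338, 2815 and 2134 CPM in WSB/EiJ on the standard diet and 1512, 931 and 1571 on the high-fat diet, a log2 change of -1.05 ± 0.22 (adjusted p = 0.0019, 23 libraries, edgeR). In NZO/HiLtJ it was at 1673, 1942 and 1894 against 1272, 1087 and 1321 CPM, with no overlap. That change of -0.58 had adjusted p = 0.10 in 23 libraries and 0.0058 in 18. Lipe shares 918 exon bases with the antisense gene 4732471J01Rik in GENCODE M21. Whether counting used strand is not given in the sources used here, so reads of the pair cannot be told apart.

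Mgll (chromosome 6, 88724412 to 88828360, plus strand) encodes monoglyceride lipase, which frees glycerol and the last fatty acid. In WSB/EiJ it was at 2730, 2519 and 1896 CPM on the standard diet and 1300, 862 and 1375 on the high-fat diet, a log2 change of -1.02 ± 0.19 (adjusted p = 0.00087, 23 libraries, edgeR). In NZO/HiLtJ its 3 standard-diet libraries lay close together at 3072, 3087 and 3110 CPM, above 2373, 2134 and 2424 CPM on the high-fat diet. The NZO/HiLtJ change was -0.42 ± 0.19 (adjusted p = 0.18) and was called only in the 18 libraries (adjusted p = 0.018), of these sets.

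Abhd5 (chromosome 9, 122351608 to 122381524, plus strand) activates ATGL. Its WSB/EiJ levels were 416, 375 and 364 CPM on the standard diet, above every other library, against 183, 124 and 191 CPM for the high-fat mice. The log2 change of -1.22 ± 0.16 had adjusted p = 9.2e-05 (23 libraries, edgeR), and 0.083 in 24 libraries. In C57BL/6J it went the other way, at 146, 160 and 152 CPM against 157, 182 and 216, with overlap and a change of 0.27 ± 0.16 (adjusted p = 0.77). NZO/HiLtJ libraries overlapped, at 189 to 236 against 174 to 202 CPM. Abhd5 shares 950 exon bases with the antisense gene A730085K08Rik, which cannot be told apart from it without strand.

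G0s2 (chromosome 1, 193272161 to 193273217, minus strand) inhibits ATGL, and insulin is known to raise it in adipocytes. It passed in no diet comparison of any of the 3 library sets. In NZO/HiLtJ it was at 108, 136 and 107 CPM on the standard diet and 98.5, 78.6 and 98.5 on the high-fat diet, without overlap, and the change was -0.34 ± 0.24 (adjusted p = 0.41, 23 libraries, edgeR). In WSB/EiJ it was at 73.8, 64.3 and 49.6 against 51, 29.5 and 50.2 CPM, which overlap.

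Plin1 (chromosome 7, 79720218 to 79732903, minus strand) is the main coat protein of adipocyte droplets and holds Abhd5 in the unstimulated cell. In WSB/EiJ it was at 648, 577 and 440 CPM on the standard diet and 328, 203 and 329 on the high-fat diet. The change of -0.95 ± 0.21 had adjusted p = 0.0023 (23 libraries, edgeR). In NZO/HiLtJ it was at 436, 495 and 513 against 359, 300 and 362 CPM, which do not overlap, with adjusted p = 0.14 in 23 libraries and 0.0094 in 18. In CAST/EiJ high-fat replicate 1 it had 71 counts, or 0.96 CPM, beside 395 and 569 CPM in the other 2 mice.

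Plin2 (chromosome 4, 86648386 to 86670060, minus strand) coats droplets in most cell types, macrophages included, and its protein is degraded when it is not bound to fat. It was the 1 member called higher on the high-fat diet in any strain in the fits without the adipocyte covariate. With that covariate in 24 libraries, Plin1 (0.79, adjusted p = 0.0015, edgeR) and Cidec (0.66, 0.0082) were also called higher in NZO/HiLtJ (9.48% of all genes called). Plin1 was also called higher in WSB/EiJ (0.55, 0.011, 26.7%). The covariate was 6.73 in CAST/EiJ high-fat replicate 1 and at least 12.29 in every other library. Without that library these estimates were 0.52, 0.22 and 0.24, and none was called (edgeR, adjusted p = 0.38, 0.77 and 0.88). In NZO/HiLtJ Plin2 was at 676, 684 and 575 CPM on the standard diet and 1400, 1542 and 1018 on the high-fat diet, a log2 change of 1.04 ± 0.22 (adjusted p = 0.0058 in 23 libraries and 0.245 in 24, edgeR). The macrophage sum rose in the same 3 libraries, and its part in the Plin2 change was not tested. In C57BL/6J it was at 288, 343 and 437 CPM against 499, 594 and 453, also without overlap, but the change of 0.53 ± 0.22 did not pass (adjusted p = 0.60). In CAST/EiJ the standard-diet mice had 659, 502 and 535 CPM and the high-fat mice 106, 751 and 721, so the direction turned with replicate 1 (-0.10 with it and 0.37 without). In WSB/EiJ it was at 442, 306 and 346 against 231, 173 and 330 CPM, a change of -0.58 ± 0.22 with overlap (adjusted p = 0.047).

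Plin4 and Plin5 lie next to each other on chromosome 17, Plin4 at 56100591 to 56109803 and Plin5 at 56111601 to 56117596, both on the minus strand. Plin4 coats small nascent droplets in adipocytes. Its coefficient of variation was the highest of the members in 23 libraries, with 782, 2152 and 1074 CPM in C57BL/6J on the high-fat diet against 2444, 2550 and 1530 on the standard diet. No diet change of Plin4 passed in any strain in 24, 23 or 18 libraries, with -0.56 in WSB/EiJ and -0.71 in C57BL/6J (23 libraries). Plin5 was at 13.5, 17.3 and 17.3 CPM in NZO/HiLtJ on the standard diet and 17.5, 15.5 and 17.6 on the high-fat diet, which overlap. Its highest level, 44.4 CPM in CAST/EiJ high-fat replicate 2, was in the library with the highest summed level of 6 brown or beige adipocyte genes (464 CPM, against a median of 66.1), and the part of such cells was not tested.

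Cidec (chromosome 6, 113424634 to 113435760, minus strand), known also as Fsp27, drives droplet fusion. In NZO/HiLtJ it lay at 5885, 5873 and 5732 CPM on the standard diet and at 3843, 3527 and 4023 on the high-fat diet. This change of -0.62 ± 0.19 had adjusted p = 0.040 in 23 libraries (edgeR) and 0.0036 in 18. In WSB/EiJ it lay at 4169, 4217 and 3141 against 1699, 1117 and 1571 CPM, the steepest change of any member in that strain at -1.40 ± 0.19 (adjusted p = 0.00012). The C57BL/6J libraries overlapped, at 3388, 3285 and 3111 against 2178, 3223 and 3218 CPM.

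Counting members whose libraries of both diets did not overlap gave 8 in NZO/HiLtJ (Plin2 above, 7 below), where 46.5% of all genes did not overlap, and 7 in WSB/EiJ, all below, where 40.0% did not. In C57BL/6J it gave 1, Plin2, where 10.8% of all genes did not overlap. In CAST/EiJ, with 2 high-fat mice, it gave 2, Plin2 above and Pnpla2 below, beside 30.6%.

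Whether the diet effect differed between strains was tested directly. In 24 libraries edgeR called 0 members in the strain by diet interaction (3.08% of all genes called), with 0 at an unadjusted p below 0.05, and DESeq2 and limma voom also called 0. In 23 libraries it called Abhd5 (adjusted p = 0.0028), Plin2 (0.013) and Cidec (0.017), where 17.6% of all genes were called. The WSB/EiJ diet effect lay below that of C57BL/6J by 1.49 ± 0.22 for Abhd5, 1.21 ± 0.26 for Cidec and 1.11 ± 0.31 for Plin2, the 3 members called in that contrast (16.0% of all genes). The NZO/HiLtJ effect lay above that of WSB/EiJ by 1.61 ± 0.31 for Plin2 and 1.01 ± 0.22 for Abhd5, the 2 members called there (15.2%). Between NZO/HiLtJ and C57BL/6J no member was called for a difference in diet effect (2.69% of all genes called). There the Plin2 difference was 0.51 ± 0.31, so that its rise in NZO/HiLtJ was not shown to exceed the change in C57BL/6J. In the 18 libraries, without WSB/EiJ high-fat mice, 0 members were called in the interaction (6.92% of all genes), and 4 were at an unadjusted p below 0.05 (24.5% of all genes).

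Strains were then compared on the same diet. On the standard diet 0 members passed the test of any strain difference in 24 libraries (49.6% of all genes did), with 0 at an unadjusted p below 0.05 and 0 called by DESeq2 or limma voom. In 23 libraries, 7 of 10 passed (64.4% of all genes): Abhd5, Cidec, G0s2, Lipe, Plin2, Plin5 and Pnpla2. Their share is close to that of all genes. Plin1 did not pass on this diet, with group medians of 495 CPM in NZO/HiLtJ, 504 in C57BL/6J, 577 in WSB/EiJ and 586 in CAST/EiJ (adjusted p = 0.53).

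Both wild-derived strains had more Abhd5, Plin5 and Pnpla2 than C57BL/6J on the standard diet in the fit of 23 libraries. For WSB/EiJ the differences were 1.34 ± 0.16 for Abhd5, 1.35 ± 0.31 for Plin5 and 0.67 ± 0.24 for Pnpla2, and Plin4 was lower by 0.87 ± 0.32, 4 calls in all (33.8% of all genes called). For CAST/EiJ they were 0.96 ± 0.16 for Abhd5, 1.48 ± 0.31 for Plin5 and 0.97 ± 0.25 for Pnpla2, with Cidec, Lipe and Plin2 also higher (6 calls, 39.6% of all genes). NZO/HiLtJ had more Cidec (0.84 ± 0.19), Plin2 (0.86 ± 0.22) and Abhd5 (0.48 ± 0.16) than C57BL/6J (3 calls, 16.2%). NZO/HiLtJ had 4 members called against CAST/EiJ (46.6%), with G0s2 higher by 1.10 ± 0.24 and Pnpla2, Lipe and Abhd5 lower. Against WSB/EiJ it had 6 called (40.4%), with G0s2, Cidec and Plin2 higher and Abhd5, Lipe and Pnpla2 lower. Between CAST/EiJ and WSB/EiJ, Plin2 was the only member called, with a difference of 0.63 ± 0.22 (33.9%). Plin5 lay at 25.2 to 26.7 CPM in CAST/EiJ and 18.5 to 28.2 CPM in WSB/EiJ, against 7.47 to 11.3 CPM in C57BL/6J, with no overlap. NZO/HiLtJ, at 13.5 to 17.3 CPM, did not overlap with C57BL/6J either. The share of all genes without overlap between these groups was not counted.

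On the high-fat diet Plin2 was the 1 member to pass the test of any strain difference in all 24 libraries (adjusted p = 0.0014, edgeR), where 56% of all genes passed. It was higher in NZO/HiLtJ than in C57BL/6J by 1.36 ± 0.44 (adjusted p = 0.047, 14.9% of all genes called). It was higher than in CAST/EiJ by 1.33 ± 0.44 (0.024, 39.8%) and than in WSB/EiJ by 2.43 ± 0.46 (0.00063, 36.6%). The lowest NZO/HiLtJ high-fat library, at 1018 CPM, lay above the highest library of each other high-fat group, 594, 751 and 330 CPM. The difference from CAST/EiJ was 0.85 without CAST/EiJ high-fat replicate 1 (adjusted p = 0.011, edgeR). It was not called without NZO/HiLtJ high-fat replicate 1 (1.29, adjusted p = 0.060) or 2 (adjusted p = 0.075), in a fit of these 2 groups alone (1.31, 0.25), or in 23 libraries with the adipocyte covariate (0.68, 0.46), of 33 fits. The difference from C57BL/6J was near the threshold and was called in 10 of 33 fits, with adjusted p from 4.9e-05 to 0.15, while the one from WSB/EiJ was called in all 32 fits run.

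In 23 libraries, 9 of 10 members passed that test on the high-fat diet (71.6% of all genes), all but Plin4. WSB/EiJ was then lower than C57BL/6J in Cidec (by 0.96 ± 0.19), G0s2, Mgll, Plin1 and Plin2 (5 calls, 31.9%). CAST/EiJ differed from C57BL/6J in 3, higher in Abhd5 and Plin5 and lower in G0s2 (31%). It was higher than WSB/EiJ in 9 members, all but G0s2 (44.6%). NZO/HiLtJ and WSB/EiJ differed in 4, with Cidec, G0s2, Mgll and Plin2 higher in NZO/HiLtJ (49.6%). NZO/HiLtJ and CAST/EiJ differed in 6 (43.6%), with Pnpla2 lower by 1.22 ± 0.27 and G0s2 higher by 1.14 ± 0.28 in NZO/HiLtJ. Between NZO/HiLtJ and C57BL/6J, Plin2 was the only member called, with a difference of 1.37 ± 0.22 (26.9%). With the adipocyte covariate in the same 23 libraries, 1 member was called between CAST/EiJ and WSB/EiJ (13.3%) and 2 between WSB/EiJ and C57BL/6J (14.2%). NZO/HiLtJ then had 6 called against WSB/EiJ (44.9%), 3 against CAST/EiJ (13.8%) and 2 against C57BL/6J (8.57%). The adipocyte sum was 6508 to 10149 CPM in WSB/EiJ high-fat, against 15747 and 16502 in the 2 CAST/EiJ mice kept, and its part was not tested.

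Ratios of counts within a library need no scaling and cancel what both genes share. The Plin2 to Plin1 ratio compares the general droplet coat with the adipocyte one. Its log2 values in C57BL/6J were -0.82, -0.56 and -0.13 on the standard diet and 0.71, 0.30 and -0.24 on the high-fat diet. In NZO/HiLtJ they were 0.63, 0.47 and 0.16 against 1.96, 2.36 and 1.49, which do not overlap. In CAST/EiJ they were 0.17, -0.14 and -0.18 against 6.80, 0.93 and 0.34, the first from a library with 71 Plin1 counts. In WSB/EiJ they were -0.55, -0.91 and -0.35 against -0.51, -0.23 and 0.0044, where the change was smallest.

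The high-fat minus standard difference in the Plin2 to Plin1 ratio was above 0 in 4 of 4 strains, at 0.76 in C57BL/6J, 1.52 in NZO/HiLtJ, 2.74 in CAST/EiJ and 0.36 in WSB/EiJ. Their mean was 1.34 on the log2 scale (exact permutation test within strains over 160000 regroupings, 2-sided, p = 7.5e-05, adjusted p = 0.000225 over 3 ratios). Leaving out CAST/EiJ high-fat replicate 1, the mean was 0.83 (exact permutation test, adjusted p = 0.000338), and in the 18 libraries it was 0.91 (adjusted p = 0.0045). The macrophage and adipocyte sums given above moved with this ratio in NZO/HiLtJ, and their part was not tested.

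The ratio of the activator Abhd5 to Pnpla2 was 0.36 higher on average on the high-fat diet, and with exact permutation p = 0.041 and adjusted p = 0.061 it did not pass. In the 18 libraries, which hold no WSB/EiJ high-fat mouse, the difference of 0.30 passed (exact permutation, adjusted p = 0.020), and in the 23 libraries it was 0.19 (adjusted p = 0.069). It was higher on the high-fat diet in C57BL/6J (0.43), NZO/HiLtJ (0.41) and CAST/EiJ (0.87, of which replicate 1 of the high-fat group is the highest library) and lower in WSB/EiJ (-0.28). In WSB/EiJ the values were -4.16, -4.28 and -4.08 against -4.44, -4.44 and -4.47, with no overlap. The ratio of the inhibitor G0s2 to Pnpla2 differed by 0.21 (exact permutation p and adjusted p = 0.074) and was above 0 in 3 of 4 strains. In the 23 libraries that difference was 0.23 (exact permutation, adjusted p = 0.069), and in the 18 libraries it was 0.13 (adjusted p = 0.47). Between strains this ratio was lowest in CAST/EiJ, at -7.05 to -7.59 on the standard diet, and highest in NZO/HiLtJ, at -5.06 to -5.31. These levels were not tested.

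**Figure D4:**
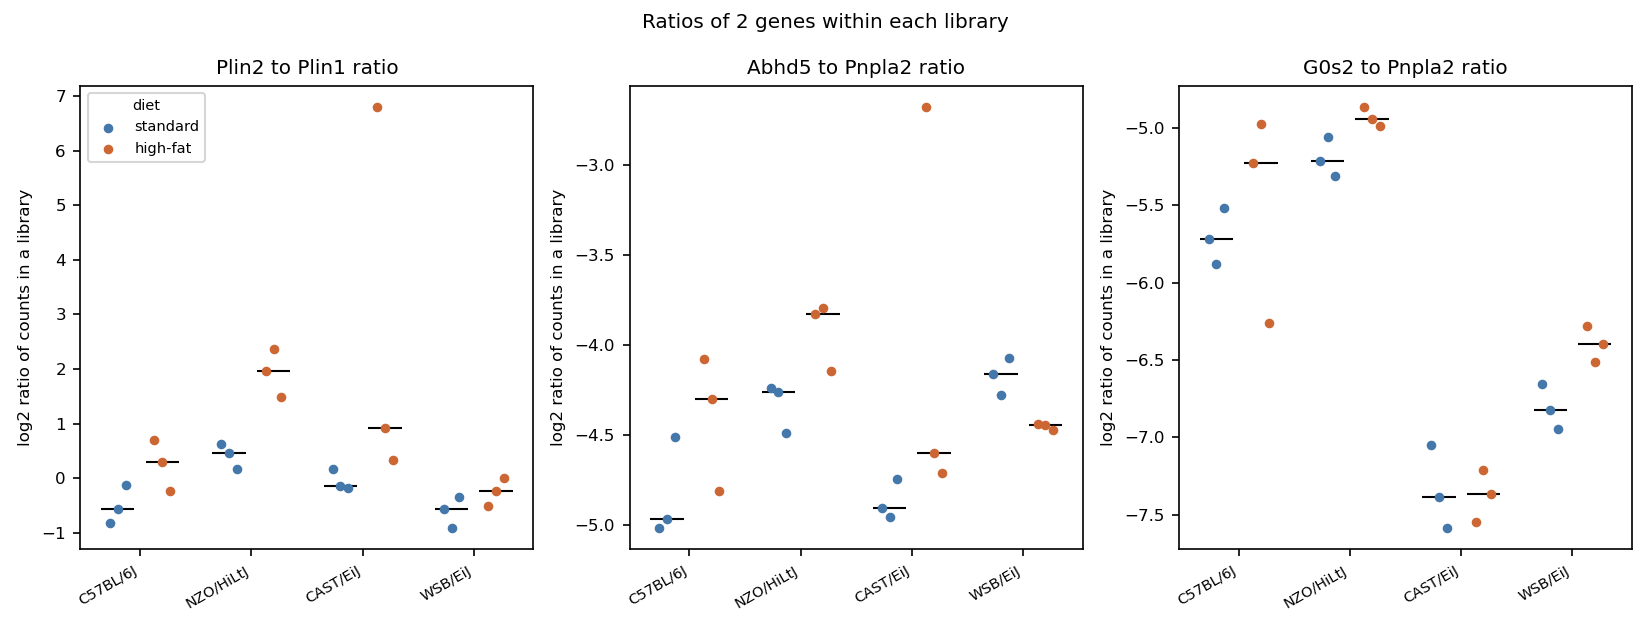
Log2 ratio of counts of 2 genes within each library, by strain and diet, with 1 point per mouse and a line at the median of 3. The median Plin2 to Plin1 ratio lies higher on the high-fat diet in each strain, with overlap of libraries in C57BL/6J and WSB/EiJ. One CAST/EiJ high-fat library is at 6.80. The Abhd5 to Pnpla2 ratio lies lower in WSB/EiJ high-fat than in WSB/EiJ standard.

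Other genes of the pathway were read from 4 lists. Of 18 other droplet coat and formation genes, 2 were higher (17.1% of all genes) and 3 lower (11.8%) on the high-fat diet averaged over strains (24 libraries, median -0.12, against 0.05 over all genes). In 23 libraries 3 were higher (13.9%) and 5 lower (15.0%), and the 5 genes described next were called in the same direction. Acsl3, an acyl-CoA synthetase on new droplets, rose by 0.95, and Hilpda, an inhibitor of ATGL, rose by 0.50. Fitm1 fell by 1.79, Ldah by 0.33 and Cideb by 1.11, where Fitm1 and Cideb were low (medians of at most 0.58 and 3.60 CPM in any group). Of the 18, 1 was higher (2.95% of all genes) and 1 lower (1.94%) in NZO/HiLtJ, 0 higher and 1 lower (1.60%) in CAST/EiJ, and 1 higher (12.9%) and 2 lower (8.61%) in WSB/EiJ. Hilpda rose in NZO/HiLtJ by 1.00 (adjusted p = 0.022, edgeR), from 7.59, 7.89 and 8.25 CPM in rising order to 14.9, 15.5 and 17.0. It was also called in 23 libraries (1.00, adjusted p = 0.012), and not without any 1 of the 6 NZO/HiLtJ libraries (adjusted p from 0.054 to 0.11). Cideb fell there by 2.89 (adjusted p = 0.041, edgeR, and 0.013 in 23 libraries), from 3.60, 7.22 and 1.94 CPM to 0.68, 0.31 and 0.73. The liver sum given above was highest in the same standard-diet library as Cideb and lower in all 3 high-fat libraries, and its part was not tested. In WSB/EiJ Acsl3 rose and Aup1 and Rab18 fell, in 24 and in 23 libraries. In CAST/EiJ Fitm1 was called lower in 24 libraries (adjusted p = 0.039, edgeR), with 0 counts in 2 of the 3 high-fat libraries and 0.053, 1.36 and 0.065 CPM on the standard diet. That call rests on standard replicate 2, where 6 skeletal muscle genes summed to 4103 CPM, against 36.1 and 6.89 CPM in the other 2 mice. Without that library the change was -2.14 (adjusted p = 0.21) and the average over strains -1.03 (0.055), and without CAST/EiJ high-fat replicate 1 the CAST/EiJ change was -4.49 (0.15). With each of the 24 libraries dropped in turn, Fitm1 was called in CAST/EiJ 10 times, and Cideb in NZO/HiLtJ 14 times. Aup1 passed the interaction test (adjusted p = 0.049, and 0.016 in 23 libraries), and in only 4 fits when each of the 24 libraries was dropped in turn. The strains differed in Hilpda, Aup1 and Cidea on the high-fat diet and in Hilpda, Spart and Cidea on the standard diet, the 3 smallest adjusted p of each test, and all of these passed in 23 libraries.

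Of 11 other lipases and carriers, 2 were lower averaged over strains (11.8% of all genes, 24 libraries, median -0.45): Ddhd2, a phospholipase, by 0.64 and the monoglyceride lipase Abhd6 by 0.38. In 23 libraries their changes were -0.53 and -0.30, both called, and with 1 library dropped at a time Abhd6 was called 14 of 24 times. Lipa, the acid lipase of lysosomes, was at 49.1 to 58.9 CPM in NZO/HiLtJ on the standard diet and 137 to 197 CPM on the high-fat diet. It rose by 1.59 there (adjusted p = 5.1e-05, edgeR) and fell by 0.57 in WSB/EiJ (adjusted p = 0.031), and it passed the interaction test (adjusted p = 0.0015). In 23 libraries these adjusted p were 6.6e-06, 0.0076 and 0.00025. Macrophages express Lipa strongly, and their marker sum rose in the same NZO/HiLtJ libraries, but their part in the Lipa change was not tested. Between strains the smallest adjusted p were those of Abhd6, Ddhd2 and the fatty acid carrier Fabp5 on the standard diet and Lipa, Abhd6 and Ddhd2 on the high-fat diet, and they passed in 23 libraries too. In WSB/EiJ Abhd6 and Ddhd2 fell as well, and without CAST/EiJ high-fat replicate 1, 10 of the 11 genes were lower in that strain (17.9% of all genes).

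Of 18 genes of hormonal control, 1 was lower averaged over strains (11.8% of all genes, 24 libraries, median -0.22): Insr, the insulin receptor, fell by 0.33. Insr also fell in WSB/EiJ, by 0.71. In 23 libraries its changes were -0.27 and -0.71, both called. Npr1, a natriuretic peptide receptor, and Adcy3, an adenylyl cyclase, had the smallest adjusted p between strains on the high-fat diet, and Adra2a, Npr1 and Insr had them on the standard diet, and they passed in 23 libraries too. In 23 libraries, 7 of the 18 were lower in WSB/EiJ (17.9% of all genes).

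Of 8 transcription factors that act on these genes, 0 were called averaged over strains in 24 libraries (28.9% of all genes, edgeR), and the median was -0.42, against 0.05 over all genes. Srebf1, which drives fatty acid synthesis, fell by 1.71 in WSB/EiJ (adjusted p = 0.040, and 0.00070 in 23 libraries), from 2012 to 3418 CPM down to 522 to 1102. Dropping each of the 24 libraries in turn, it was called 13 times. Foxo1 and Irf4 differed between strains on each diet, Srebf1 on the standard diet and Ppara on the high-fat diet, and they passed in 23 libraries too. In 23 libraries 4 of the 8 fell averaged over strains (15.0% of all genes), Pparg, Cebpa, Nr1h3 and Srebf1. Pparg and Cebpa are also among the adipocyte markers.

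For each member the most similar profile over the 24 libraries was sought among 11628 other genes with a mean of 5 CPM or more, by Spearman's rho. The libraries fall into groups and share replicate 1 of CAST/EiJ high-fat, so rho is a description. No member had another member as its closest gene. Plin1 lay closest to Cebpa (0.956), Aamp (0.944) and Slc1a5 (0.943), and Lipe to 4732471J01Rik (0.977), with which it overlaps, Cebpa (0.973) and Tmco1 (0.967). Plin2 lay close to Arhgef1 (0.931) and Stk17b (0.929), which are no adipocyte markers. G0s2 lay closest to Arhgef15 (0.945), Slc18b1 (0.912) and Zbtb46 (0.909), and Plin5 to Hccs (0.911), 1700021F05Rik (0.906) and Cyp2u1 (0.905). The closest genes of the others were Nrg4 for Pnpla2 (0.978), Grpel1 for Abhd5 (0.960), Fbxo4 for Cidec (0.933), Ube3b for Mgll (0.905) and Adcy5 for Plin4 (0.893).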

How the data were processed

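RNA-seq of poly(A) RNA (TruSeq, per the labels' protocols) was measured in 24 libraries. The authors deposited gene-level expected counts, held as whole numbers, and the submitters' processing notes list Bowtie 0.12.8, CASAVA 1.8.0 and RSEM 1.2.1 and the builds NCBIM37 and mm9, in roles not given. Whether reads of each strain were aligned to its own genome is not given in the sources used here. The authors' second deposited table is an upper-quartile signal, each count over the 75th percentile of a library's counts above 0, which was used only as an alternative for the ratios.

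Gene IDs were paired with symbols by the reference name table (32919 of 37991). Counts were filtered with filterByExpr (20035 genes kept, 17956 removed), scaled by TMM and fitted in edgeR 4.0.16 (R 4.3.3) with 1 coefficient per group and 16 residual degrees of freedom. The 23 comparisons used quasi-likelihood F tests, 2-sided, with Benjamini-Hochberg adjustment over all genes tested and a threshold of 0.05. Ratios used exact permutation of diet within strain. Alternatives were DESeq2 1.42.0, limma 3.58.1 voom, upper-quartile scaling, no filter, leaving out libraries, fitting only the compared groups and an adipocyte covariate. An adipocyte covariate in 23 libraries was added after seeing the data. The fits were tested on simulated data.

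The members, lists and rules were chosen with earlier results of these data known. Named genes are the 10 members and, from the 4 other lists, up to 3 per direction in each diet comparison and up to 3 in each test of any strain difference, with the smallest adjusted p below 0.05 in 24 libraries. Some results that this rule or the search for similar profiles would name are not reported here. Totals were 47651641 to 84009032 counts, and 3 mice per group limit the precision.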

Additional observations from a re-analysis of the deposited data

Results flagged for a closer look

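The diet effect on 3 members differed between strains by the interaction test of edgeR in the 23 libraries without CAST/EiJ high-fat replicate 1. The adjusted p was 0.00285 for Abhd5, 0.0128 for Plin2 and 0.0168 for Cidec. In all 24 libraries none of them passed. In the 23 libraries the diet change in WSB/EiJ was negative for each of the 3, while Plin2 was positive in the other strains.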

How the results depend on the processing

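The values of the 10 members kept their side of the threshold and direction in 5756 of 6330 pairs of a value and an alternative, moved past it in 268, fell short in 27, and changed sign in 263 with no call and in 16 with a call. Nearly all values were not called in 24 libraries, so a kept side mostly means no call in both fits. Counts below are members called by edgeR or the named tool, set against the counts in 24 libraries, which were 1 for any strain difference on the high-fat diet and for NZO/HiLtJ against each other strain on that diet, and 0 elsewhere, each with the share of all genes called in the same fit. Upper-quartile scaling and no filter each called 0 in NZO/HiLtJ minus C57BL/6J on high-fat (14.7% and 9.40%). limma voom called 2 in the test of any strain difference on high-fat diet (48.1%) and NZO/HiLtJ minus CAST/EiJ on high-fat (34.8%), 1 in CAST/EiJ minus C57BL/6J on high-fat (24.2%), 0 in NZO/HiLtJ minus C57BL/6J on high-fat (15.4%). DESeq2 called 3 in the test of any strain difference on high-fat diet (62.7%), 2 in NZO/HiLtJ minus CAST/EiJ on high-fat (44.3%), 1 in the diet effect in WSB/EiJ (27.6%), WSB/EiJ minus C57BL/6J on standard (27.5%) and CAST/EiJ minus WSB/EiJ on high-fat (29.8%). The 18 libraries with little Epcam, which give no comparison with WSB/EiJ high-fat, gave 9 in the test of any strain difference on standard diet (75.1%), 8 in NZO/HiLtJ minus CAST/EiJ on high-fat (53.3%), 7 in CAST/EiJ minus C57BL/6J on standard (50.2%), NZO/HiLtJ minus WSB/EiJ on standard (45.9%) and the test of any strain difference on high-fat diet (60.8%). Further counts were 6 in the diet effect in NZO/HiLtJ (20.8%) and NZO/HiLtJ minus CAST/EiJ on standard (56.7%), 5 in WSB/EiJ minus C57BL/6J on standard (41.3%), 4 in the average diet effect (12.3%), NZO/HiLtJ minus C57BL/6J on standard (27.0%) and NZO/HiLtJ minus C57BL/6J on high-fat (32.8%). Further counts were 2 in CAST/EiJ minus WSB/EiJ on standard (39.5%) and CAST/EiJ minus C57BL/6J on high-fat (35.6%). Fitting only the groups compared, not possible for the average and the interaction, gave 9 in the test of any strain difference on standard diet (76.1%), 8 in NZO/HiLtJ minus WSB/EiJ on standard (50.2%), 7 in CAST/EiJ minus C57BL/6J on standard (48.7%) and NZO/HiLtJ minus CAST/EiJ on standard (56.3%). Further counts were 6 in the diet effect in NZO/HiLtJ (32.7%) and NZO/HiLtJ minus C57BL/6J on standard (31.2%), 5 in WSB/EiJ minus C57BL/6J on standard (43.0%) and NZO/HiLtJ minus WSB/EiJ on high-fat (33.0%), 2 in the diet effect in WSB/EiJ (8.15%), the difference of diet effects WSB/EiJ minus C57BL/6J (5.04%) and the difference of diet effects NZO/HiLtJ minus WSB/EiJ (11%). Further counts were 1 in CAST/EiJ minus WSB/EiJ on standard (38.0%), 0 in NZO/HiLtJ minus CAST/EiJ on high-fat (17.8%). The adipocyte covariate in 24 libraries gave 9 in the test of any strain difference on standard diet (65.4%), 8 in NZO/HiLtJ minus C57BL/6J on high-fat (27.4%), 7 in NZO/HiLtJ minus WSB/EiJ on standard (40.7%), the test of any strain difference on high-fat diet (72.1%) and NZO/HiLtJ minus WSB/EiJ on high-fat (51.7%). Further counts were 6 in NZO/HiLtJ minus C57BL/6J on standard (17.7%), 5 in NZO/HiLtJ minus CAST/EiJ on standard (45.8%) and NZO/HiLtJ minus CAST/EiJ on high-fat (47.2%), 4 in the average diet effect (10.9%), CAST/EiJ minus C57BL/6J on standard (39.6%) and WSB/EiJ minus C57BL/6J on standard (34.4%). Further counts were 3 in the diet effect in NZO/HiLtJ (9.48%), WSB/EiJ minus C57BL/6J on high-fat (28.9%) and CAST/EiJ minus WSB/EiJ on high-fat (43.8%), 2 in the diet effect in WSB/EiJ (26.7%), the strain by diet interaction (14.9%), the difference of diet effects NZO/HiLtJ minus WSB/EiJ (15.5%) and CAST/EiJ minus C57BL/6J on high-fat (32.9%), 1 in the difference of diet effects WSB/EiJ minus C57BL/6J (10.2%) and CAST/EiJ minus WSB/EiJ on standard (35.2%). With the covariate in 23 libraries, chosen after seeing the data, there were 7 in the test of any strain difference on high-fat diet (58.6%), 6 in the test of any strain difference on standard diet (55.9%) and NZO/HiLtJ minus WSB/EiJ on high-fat (44.9%), 5 in CAST/EiJ minus C57BL/6J on standard (33.2%). Further counts were 4 in NZO/HiLtJ minus C57BL/6J on standard (14.4%), WSB/EiJ minus C57BL/6J on standard (28.8%) and NZO/HiLtJ minus WSB/EiJ on standard (24.0%), 3 in the difference of diet effects NZO/HiLtJ minus WSB/EiJ (11.3%), NZO/HiLtJ minus CAST/EiJ on standard (29.5%) and NZO/HiLtJ minus CAST/EiJ on high-fat (13.8%), 2 in the strain by diet interaction (7.34%), CAST/EiJ minus WSB/EiJ on standard (35.4%), NZO/HiLtJ minus C57BL/6J on high-fat (8.57%), CAST/EiJ minus C57BL/6J on high-fat (25.4%) and WSB/EiJ minus C57BL/6J on high-fat (14.2%). Further counts were 1 in CAST/EiJ minus WSB/EiJ on high-fat (13.3%). Leaving out 1 library in turn gave a range of counts. The share beside each range is that in the 23 libraries without CAST/EiJ high-fat replicate 1. The counts ran from 1 to 9 in the test of any strain difference on high-fat diet (71.6%) and 0 to 9 in CAST/EiJ minus WSB/EiJ on high-fat (44.6%). They ran from 0 to 7 in the diet effect in WSB/EiJ (39.8%), the average diet effect (28.9%) and the test of any strain difference on standard diet (64.4%). They ran from 0 to 6 in CAST/EiJ minus C57BL/6J on standard (39.6%), NZO/HiLtJ minus WSB/EiJ on standard (40.4%) and NZO/HiLtJ minus CAST/EiJ on high-fat (43.6%). They ran from 0 to 5 in WSB/EiJ minus C57BL/6J on high-fat (31.9%), 0 to 4 in WSB/EiJ minus C57BL/6J on standard (33.8%) and NZO/HiLtJ minus CAST/EiJ on standard (46.6%). They ran from 1 to 4 in NZO/HiLtJ minus WSB/EiJ on high-fat, 0 to 3 in the strain by diet interaction, the difference of diet effects WSB/EiJ minus C57BL/6J, NZO/HiLtJ minus C57BL/6J on standard and CAST/EiJ minus C57BL/6J on high-fat, 0 to 2 in the diet effect in NZO/HiLtJ and the difference of diet effects NZO/HiLtJ minus WSB/EiJ. They ran from 0 to 1 in CAST/EiJ minus WSB/EiJ on standard (33.9%) and NZO/HiLtJ minus C57BL/6J on high-fat (26.9%). The upper end was reached without CAST/EiJ high-fat replicate 1, and apart from that library the counts differed from those in 24 libraries only for NZO/HiLtJ against C57BL/6J (0 to 1) and against CAST/EiJ (0 to 2) on the high-fat diet. With 1 library left out in turn, the mean ratio difference ran from 0.83 to 1.64 for Plin2 to Plin1. It ran from 0.19 to 0.45 for Abhd5 to Pnpla2 and from 0.15 to 0.31 for G0s2 to Pnpla2. In the 18 libraries the G0s2 to Pnpla2 difference was 0.13 (exact permutation, adjusted p = 0.47). Abhd5 to Pnpla2 passed without any 1 of 6 libraries, among them C57BL/6J high-fat replicate 3 (0.41, exact permutation, adjusted p = 0.0214), and in the 18 libraries (0.30). G0s2 to Pnpla2 passed without C57BL/6J high-fat replicate 3 (0.31) or CAST/EiJ standard replicate 1 (0.25). Sign changes that ended in a call were these. With the covariate in 24 libraries, the values were Plin1 (0.79) and Cidec (0.66) for the diet effect in NZO/HiLtJ, Plin1 (0.55) for the diet effect in WSB/EiJ, Plin1 (0.42), Plin5 (0.61) and Cidec (0.27) for the average diet effect. They were Plin1 (0.58) for NZO/HiLtJ minus CAST/EiJ on standard, Plin1 (0.56) for NZO/HiLtJ minus WSB/EiJ on standard, Lipe (0.44), Abhd5 (0.49) and Plin1 (0.86) for NZO/HiLtJ minus C57BL/6J on high-fat. They were Plin1 (-0.45) for CAST/EiJ minus WSB/EiJ on high-fat. For the diet effects among these, the fit with the covariate in 23 libraries called 0 members. Without CAST/EiJ high-fat replicate 1, the values were Abhd5 (0.50) for CAST/EiJ minus C57BL/6J on high-fat, Abhd5 (-0.49) for NZO/HiLtJ minus CAST/EiJ on high-fat. In the 18 libraries, the values were Abhd5 (-0.51) and Plin1 (-0.51) for NZO/HiLtJ minus CAST/EiJ on high-fat. Leaving out 1 library in turn, Abhd5 ran from -0.42 to 0.50 for CAST/EiJ minus C57BL/6J and from -0.49 to 0.43 for NZO/HiLtJ minus CAST/EiJ on high-fat. The cause of these changes was not tested. No paired analysis was possible because the replicate numbers come from accession order and pair no mice. The lowest counts of any member were in CAST/EiJ high-fat replicate 1, with 39 for Plin5, 56 for G0s2 and 71 for Plin1.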
